A study of Mus musculus with 11 samples.

Results

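Nucleosomes carrying H3K4me2 (dimethylation of histone H3 at lysine 4) were compared between 2 mutant libraries of mouse jejunal villus epithelium, a double knockout titled Cdx2-Cdx1 and a Cdx2 single knockout. The members were the called nucleosomes with a score of 52 or more, where the score is 10 times the −log10 of the p-value that the authors deposited for each nucleosome. There were 281957 of them in the library titled Cdx2-Cdx1 and 256794 in Cdx2 knockout, 538751 of the 1310379 nucleosomes that the 5 H3K4me2 lists of the series hold at that score. The comparison addresses what a second deletion adds to the loss of Cdx2 genome-wide. Each side had 1 library, so no p-value was computed, and every interval given is a 95% interval for counting error.

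The series holds 11 samples from villi released with EDTA, of which 5 are H3K4me2 libraries, 5 are CDX2 or HNF4A libraries and 1 is input DNA, which was not analysed here. The other H3K4me2 libraries, used for scale, came from wild type, from Hnf4a knockout and from a double knockout titled Cdx2-Hnf4a. For H3K4me2 the villi were digested with micrococcal nuclease without fixation, which cuts chromatin into nucleosomes. Each library was made from pooled chromatin immunoprecipitations, and the mice of all of these groups are labelled as a mixed 129xC57BL6 background. The promoter that drives the deletions, the age of the mice and how many mice were pooled are not given in these sources. Tissue markers could not be checked, because no gene annotation of build mm9, the build of the files, was used here. Regions are therefore given by position and are not assigned to genes.

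The labels of the library titled Cdx2-Cdx1 contradict each other. Its title names Cdx1 as the second deleted gene, while its source and description name Hnf4a, and the study's paper was not used here. The library is named by its title throughout, and no conclusion is drawn from or about which second gene it lacks. Windows listed below for the chromosomes of Hnf4a and Cdx1 are a description only.

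CDX2 is a homeodomain transcription factor that specifies and maintains the intestinal epithelium, and CDX1 is its close relative in the same cells. HNF4A is a nuclear receptor of enterocytes that binds many of the same regulatory regions. H3K4me2 marks the nucleosomes of promoters and enhancers. At an enhancer in use, the factors sit in a gap between a pair of marked nucleosomes, so a nucleosome map at this resolution shows a dip over the site and a peak on either side of it.

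Because the labels disagree, windows emptied of the mark were listed by chromosome. Windows of 5 kb with 3 or more nucleosomes in Cdx2 knockout and none in the library titled Cdx2-Cdx1 numbered 294 of 33714, or 0.872%. Chromosome 2, which carries Hnf4a, had 35 of them, 1.35% (0.939 to 1.87) of its windows, against 0.832% (0.735 to 0.940) on the other chromosomes together. Other chromosomes came close, with 1.27% on chromosome 9, 1.198% on chromosome 18, 1.19% on chromosome 4 and 1.18% on chromosome 10. Of these 35 windows, 24 were also without a nucleosome in Hnf4a knockout, a share of 68.6% (50.7 to 83.2) against 40.5% (34.5 to 46.8) of the 259 elsewhere. Empty means no nucleosome at a score of 52 or more, so weaker ones can be present. The Hnf4a knockout list reached down to 1.7, and 51.6% of it was kept. Median kept scores were 206.8 there and 199.1 in the library titled Cdx2-Cdx1, against 241.6 in wild type, 249.7 in Cdx2 knockout and 238.9 in the library titled Cdx2-Hnf4a.

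In 15 of the 35 windows, 42.9% (26.3 to 60.7), Hnf4a knockout was empty as well while wild type and the library titled Cdx2-Hnf4a were both marked, against 46 of 259 elsewhere, 17.8% (13.3 to 23.0). Those 15 lay between 93480001 and 158385000. The one at chr2:145055001-145060000 held 4 nucleosomes in Cdx2 knockout, 4 in wild type and 6 in the library titled Cdx2-Hnf4a. With the double knockouts exchanged, 48 windows of chromosome 2 were empty in the library titled Cdx2-Hnf4a (1.78% of windows genome-wide were), and 0 of the 48 had that pattern, which allows a share of up to 7.40%. On the other chromosomes together 20 of 553 had it, 3.62% (2.22 to 5.53). That share lies within the limit, so the 0 of 48 does not set chromosome 2 apart. Chromosome 18, which carries Cdx1, had 13 emptied windows in the library titled Cdx2-Cdx1 and 20 in the library titled Cdx2-Hnf4a, of 1085. On chromosome 2 Hnf4a knockout was empty in 24 of the 35 windows emptied in the library titled Cdx2-Cdx1 and in 8 of the 48 emptied in the library titled Cdx2-Hnf4a, or 16.7% (7.48 to 30.2). On the other chromosomes together the same gap was present, with 105 of 259 (40.5%) against 71 of 553, or 12.8% (10.2 to 15.9), so it was not particular to chromosome 2. The windows are thin, most with 3 or 4 nucleosomes in Cdx2 knockout, and chromosome 3 had a like share, 8 of 11. This pattern was looked for after the data were seen, and the genotype of neither library was tested by it.

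**Figure D1:**
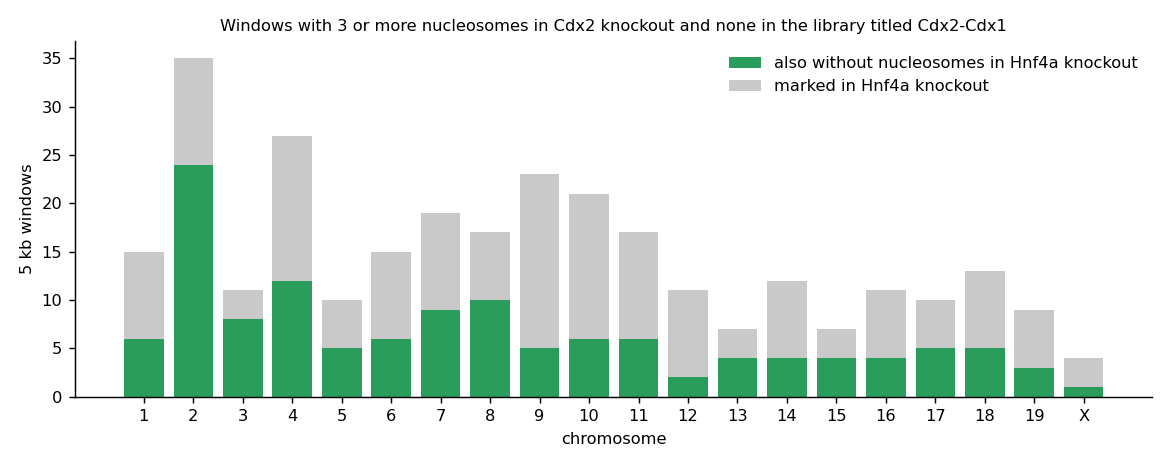
Number of 5 kb windows per chromosome that held 3 or more H3K4me2 nucleosomes in Cdx2 knockout and none in the library titled Cdx2-Cdx1, split by whether Hnf4a knockout held any (chromosomes Y and M not drawn). Chromosome 2 has the tallest bar, with 35 windows, of which 24 were also without nucleosomes in Hnf4a knockout.

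The list of the library titled Cdx2-Cdx1 was longer but weaker than that of Cdx2 knockout. At a score of 52 or more it covered 28.3 Mb against 26.2 Mb, with a median score of 199.1 against 249.7 and an upper quartile of 510.7 against 677.6. Both lists had a median nucleosome width of 90 bp. The score has a ceiling, which 3238 nucleosomes (1.15%) reached in the library titled Cdx2-Cdx1 and 4345 (1.69%) in Cdx2 knockout.

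The ratio of the 2 lengths crossed 1 as the minimum score was raised. There were 1.098 times (1.092 to 1.104) as many nucleosomes in the library titled Cdx2-Cdx1 at 52 or more, 1.003 times (0.996 to 1.01) at 150 or more and 0.740 times (0.725 to 0.755) at 1600 or more. The extra length of this list therefore lay at low scores, and at high scores it was the shorter one. Wild type had 245431 nucleosomes at 52 or more and 17712 at 1600 or more, against 15997 in the library titled Cdx2-Cdx1 and 21627 in Cdx2 knockout. Scores and list lengths move with sequencing depth, which the files do not give, so a different depth and a different amount of marked chromatin cannot be told apart. Numbers of nucleosomes were for this reason scaled by the length of each list in what follows, which sets the ratio over the whole genome to 1.

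**Figure D2:**
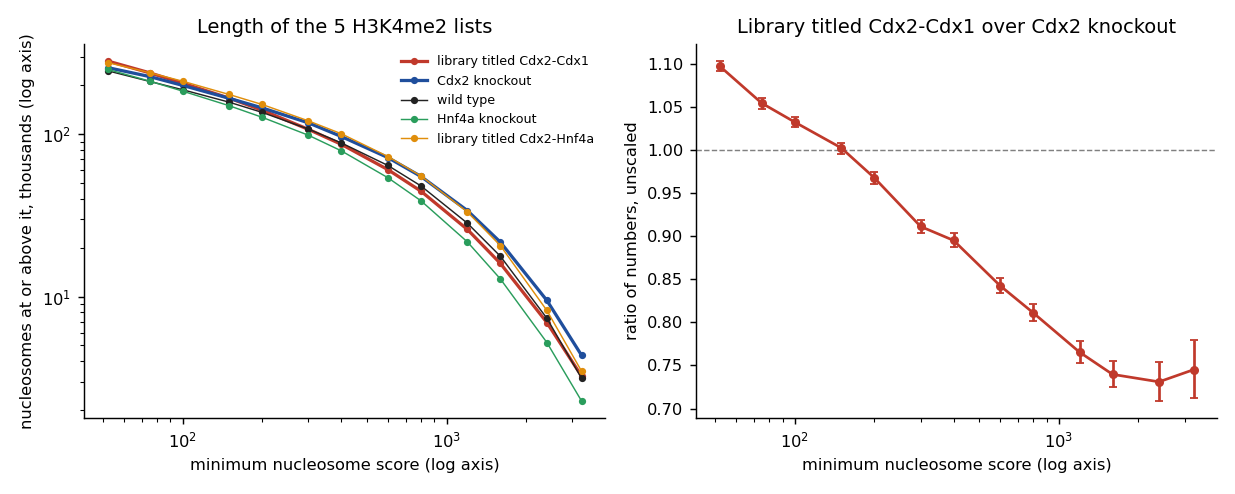
Left, number of nucleosomes at or above each minimum score in the 5 H3K4me2 lists, on log axes. Right, the unscaled ratio of the library titled Cdx2-Cdx1 to Cdx2 knockout with 95% counting intervals, which falls from 1.098 at a score of 52 to 0.740 at 1600.

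Most nucleosomes were called at the same places in both mutants. Of the Cdx2 knockout nucleosomes, 77.7% (77.6 to 77.9) overlapped one of the library titled Cdx2-Cdx1 by 1 bp or more. Of the nucleosomes of the library titled Cdx2-Cdx1, 71.1% (70.9 to 71.2) overlapped one of Cdx2 knockout. Where nucleosomes overlapped, the median distance between the nearest centres was 10 bp from either side, and 73.4% of the Cdx2 knockout centres lay within 20 bp. Shared nucleosomes thus lay at nearly the same positions.

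The shared fraction followed the score. In Cdx2 knockout it was 48.5% (47.9 to 49.1) for scores from 52 to 75, 83.0% (82.7 to 83.4) from 200 to 400 and 97.9% (97.7 to 98.2) from 1600 up to the ceiling. For the library titled Cdx2-Cdx1 it was lower at low scores, with 31.8% (31.3 to 32.2) from 52 to 75, and higher at high scores, with 93.9% (93.6 to 94.1) from 400 to 800 against 89.6% (89.3 to 89.9) in Cdx2 knockout. At the ceiling, 42 of 4345 Cdx2 knockout nucleosomes and 17 of 3238 of the library titled Cdx2-Cdx1 had no partner.

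Nucleosomes without a partner were weak. In the library titled Cdx2-Cdx1 there were 81581, with a median score of 88.5 against 309.6 for those with a partner, and 22.5% of them lay in a window where Cdx2 knockout had no nucleosome. The 57175 of Cdx2 knockout had a median score of 105.4 against 342, and 13.1% lay in a window that was empty in the library titled Cdx2-Cdx1.

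Other pairs of lists give a scale for these shares. The nucleosomes of the library titled Cdx2-Cdx1 overlapped those of wild type at 65.9% (65.7 to 66.1), of Hnf4a knockout at 66.3% (66.2 to 66.5) and of the library titled Cdx2-Hnf4a at 74.7% (74.5 to 74.9). Cdx2 knockout nucleosomes overlapped wild type at 75.4% (75.2 to 75.6). The library titled Cdx2-Cdx1 thus shared more with the lists of the other Cdx2 mutants than with those of wild type or Hnf4a knockout, which are also the shorter lists. No H3K4me2 group had a second library, so the share that lists of one condition reach is unknown.

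When nucleosomes at most 1 kb apart were joined into domains, the library titled Cdx2-Cdx1 had 71080 domains and Cdx2 knockout 62674. Single nucleosomes made up 34.0% and 32.7% of these domains. Domains of 10 or more nucleosomes numbered 6549 and 6155, and they held 36.0% and 37.2% of all nucleosomes. The largest had 97 and 105 nucleosomes, against 67 in wild type.

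The added marking of the library titled Cdx2-Cdx1 lay where wild type had little or none. In the 28789 windows without a wild-type nucleosome that some other list marked, it held 27793 nucleosomes and Cdx2 knockout 14531, a scaled ratio of 1.74 (1.71 to 1.78). The library titled Cdx2-Hnf4a held 30572 there and Hnf4a knockout 10193. Both double knockouts were therefore above both single knockouts in chromatin that was unmarked in wild type.

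With rising wild-type density the scaled ratio fell below 1. It was 1.124 (1.103 to 1.146) with 1 wild-type nucleosome per window, 1.01 (1.001 to 1.03) with 2 to 3, 0.948 (0.937 to 0.958) with 4 to 6 and 0.869 (0.849 to 0.889) in the 938 windows with 16 or more. Those densest windows held 14654 nucleosomes in the library titled Cdx2-Cdx1 and 15361 in Cdx2 knockout, so the number was slightly lower there even before scaling, at a ratio of 0.954. The unscaled ratio was 1.04 with 4 to 6 wild-type nucleosomes, 1.02 with 7 to 10 and 0.983 with 11 to 15. From 4 to 10 the direction therefore turned with the scaling. The list of the library titled Cdx2-Cdx1 is also the one with more weak nucleosomes, and the part of that in this gradient was not tested.

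Both mutants marked 58782 windows. A further 13329 were marked in the library titled Cdx2-Cdx1 alone of these 2, and 5840 in Cdx2 knockout alone. Most of those were thin, since 9798 and 4525 of them held a single nucleosome. With a minimum of 3 nucleosomes, 1064 windows were filled in the library titled Cdx2-Cdx1 and empty in Cdx2 knockout, 2.83% of the windows that held 3 or more in the former. Of these 1064, 360 were marked in wild type, 514 in Hnf4a knockout and 779 in the library titled Cdx2-Hnf4a. Of the 294 in the opposite direction, 199 were marked in the library titled Cdx2-Hnf4a, 223 in wild type and 165 in Hnf4a knockout. Both sets were chosen by the Cdx2 knockout list, which overlaps the wild-type list closely, so these shares are a description.

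A window was compared in size where both lists together held 6 or more nucleosomes, and it was called where the scaled numbers differed by at least 2-fold. Of 33098 windows, 1387 (4.19%) were higher in the library titled Cdx2-Cdx1 and 1301 (3.93%) were lower. Called windows were thin, with a median of 8 (higher) and 7 (lower) nucleosomes in both lists together, against 11 in windows called neither. Counting error alone can give a 2-fold gap at such numbers, and its part was not tested. The numbers of called windows depended on the scaling and the threshold. Without scaling they were 2922 and 1267, and at a score of 100 or more they were 647 and 1311, so the commoner direction changed with the threshold. It also changed with the window width, since windows of 2 kb gave 1069 higher and 1626 lower. At a score of 200 or more they were 784 and 542, and with summed scores in place of numbers 3366 and 2765. By the same rule, Cdx2 knockout against wild type gave 3.28% higher and 5.18% lower, Hnf4a knockout against wild type 2% and 3.6%, and the library titled Cdx2-Hnf4a against Cdx2 knockout 3.93% and 5.34%. The library titled Cdx2-Cdx1 against wild type gave 6.82% and 5.91%, the library titled Cdx2-Hnf4a against wild type 8.08% and 8.91%, and the double knockouts against each other 3.99% higher in the former and 5.15% lower. These comparisons share lists with one another. The shares called between the 2 mutants lay within the range of the other pairs.

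Lists that played no part in the calls were set beside them. The windows were chosen for a gap between 2 single libraries. A list that resembles Cdx2 knockout therefore tends to lie nearer to it, and the shares below are a description. In the 1387 higher windows, the mean scaled number was 6.12 in the library titled Cdx2-Cdx1 and 2.17 in Cdx2 knockout by choice. It was 4.15 in the library titled Cdx2-Hnf4a, 3.33 in Hnf4a knockout and 2.91 in wild type. Wild type was nearer to the library titled Cdx2-Cdx1 than to Cdx2 knockout in 22.4% (20.3 to 24.7) of these windows, and the library titled Cdx2-Hnf4a in 43.5% (40.9 to 46.2). For Hnf4a knockout the share was 28.8% (26.5 to 31.3). At most of the higher windows wild type was thus nearer to Cdx2 knockout.

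In the 1301 lower windows the chosen means were 2.26 in the library titled Cdx2-Cdx1 and 5.90 in Cdx2 knockout. The library titled Cdx2-Hnf4a had a mean of 3.66, Hnf4a knockout of 4.01 and wild type of 4.47. The library titled Cdx2-Hnf4a was nearer to the library titled Cdx2-Cdx1 in 62.6% (59.9 to 65.2) of them and wild type in 42.0% (39.3 to 44.7). Wild type lay between the mutants there, and the other double knockout was more often on the low side.

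Called windows were spread over the chromosomes. Joining neighbours gave 1336 higher and 1262 lower regions, of which 47 and 35 spanned more than 1 window, and none was longer than 15 kb. Higher windows made up between 2.55% of tested windows on chromosome X and 5.46% on chromosome 6. Lower windows made up between 2.51% on chromosome 3 and 5.10% on chromosome X. Chromosome 2 had 94 higher and 118 lower windows of 2531, and without it the counts were 1293 and 1183. The small chromosomes Y and M, with 11 and 2 tested windows, were left out of these ranges.

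The 10 higher regions with the largest difference had few nucleosomes in Cdx2 knockout, and 9 of the 10 had 5 or fewer in wild type and Hnf4a knockout as well. The first was chr17:28605001-28620000, with 4 nucleosomes in Cdx2 knockout and 35 in the library titled Cdx2-Cdx1, a scaled ratio of 7.97 (2.85 to 30.9). Wild type and Hnf4a knockout held 2 each there and the library titled Cdx2-Hnf4a 46. The region held 1 HNF4A peak of Cdx2 knockout and no wild-type HNF4A or CDX2 peak. Among the 5 lists, dense marking there was found in the double knockouts. Intervals of single regions, here and for the lower regions, do not allow for their choice by the largest difference.

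The second, at chr8:96895001-96910000, had the most in wild type, with 8 nucleosomes in wild type, 12 in Cdx2 knockout, 38 in the library titled Cdx2-Cdx1 and 33 in the library titled Cdx2-Hnf4a. It held 2 HNF4A peaks and a CDX2 peak of wild-type library 1. The third, at chr14:28155001-28165000, had 0 in wild type, 3 in Cdx2 knockout and 22 in the library titled Cdx2-Cdx1, with a highest score of 218 in the last. At chr9:99600001-99610000, wild type and Hnf4a knockout had 0, Cdx2 knockout had 1, the library titled Cdx2-Cdx1 had 17 and the library titled Cdx2-Hnf4a had 23. No wild-type CDX2 or HNF4A peak and no HNF4A peak of Cdx2 knockout lay in that region.

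Regions of the same kind lay at chr13:32415001-32425000 (18 nucleosomes against 2 in Cdx2 knockout) and at chr15:74540001-74550000 (18 and 2). Others were chr6:34305001-34310000 (17 and 2) and chr6:5440001-5445000 (17 and 3). The wild-type numbers in these 4 regions were 1, 2, 1 and 2, and those of the library titled Cdx2-Hnf4a 21, 26, 20 and 19. The last of the 10 lay at chr1:195330001-195340000 (16 and 2) and at chr3:98065001-98080000 (19 and 5), where the library titled Cdx2-Hnf4a had 8 and 22. The library titled Cdx2-Hnf4a thus held 15 or more in 9 of the 10 regions. Many of the nucleosomes were weak: at a score of 200 or more the scaled difference was 11.4 nucleosomes in the first region instead of 27.9, and about 1 in the third and in the one on chromosome 9.

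The 10 lower regions were less alike. The first, at chr8:124820001-124835000, had 30 nucleosomes in Cdx2 knockout and 9 in the library titled Cdx2-Cdx1, while the library titled Cdx2-Hnf4a had 22, wild type 17 and Hnf4a knockout 13. The second, at chr7:88255001-88265000, had 20 in Cdx2 knockout and 1 in the library titled Cdx2-Cdx1, 22.0-fold fewer after scaling (3.51 to 910). This region held 30 in wild type, 29 in Hnf4a knockout and 0 in the library titled Cdx2-Hnf4a, with 6 wild-type HNF4A peaks and 1 of Cdx2 knockout. It was the one region of the 10 that was full in wild type and both single knockouts and nearly empty in both double knockouts.

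Marking was spread over several lists in the next ones. At chrX:11655001-11670000 there were 30 nucleosomes in Cdx2 knockout, 13 in the library titled Cdx2-Cdx1 and between 25 and 28 in the other 3 lists. At chr17:26550001-26565000 there were 29, 12 and between 17 and 24, with CDX2 peaks of either wild-type library. At chr4:40990001-40995000 there were 22 in Cdx2 knockout, 9 in the library titled Cdx2-Cdx1 and 2 in the library titled Cdx2-Hnf4a. At chr18:75535001-75545000 there were 24 and 11, with 8 in the library titled Cdx2-Hnf4a.

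At the remaining 4 lower regions Cdx2 knockout stood above the other 4 lists. They lay at chr2:118495001-118505000 (22 nucleosomes in Cdx2 knockout and 7 in the library titled Cdx2-Cdx1), chr2:144370001-144380000 (18 and 4) and chr2:162810001-162820000 (25 and 12), and at chr1:164780001-164795000 (22 and 8). The wild-type numbers were 11, 6, 17 and 12. The number in Cdx2 knockout was also the highest of the 5 lists in the regions on chromosome 8, X, 17, 4 and 18 described above. Cdx2 knockout thus had the most nucleosomes in 9 of the 10 lower regions, which were chosen for a high number in that list. At a score of 200 or more the difference shrank by over 1.5 times in 9 of these 10 regions, for example to −1.94 from −14.4 at chr2:144370001-144380000.

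**Figure D3:**
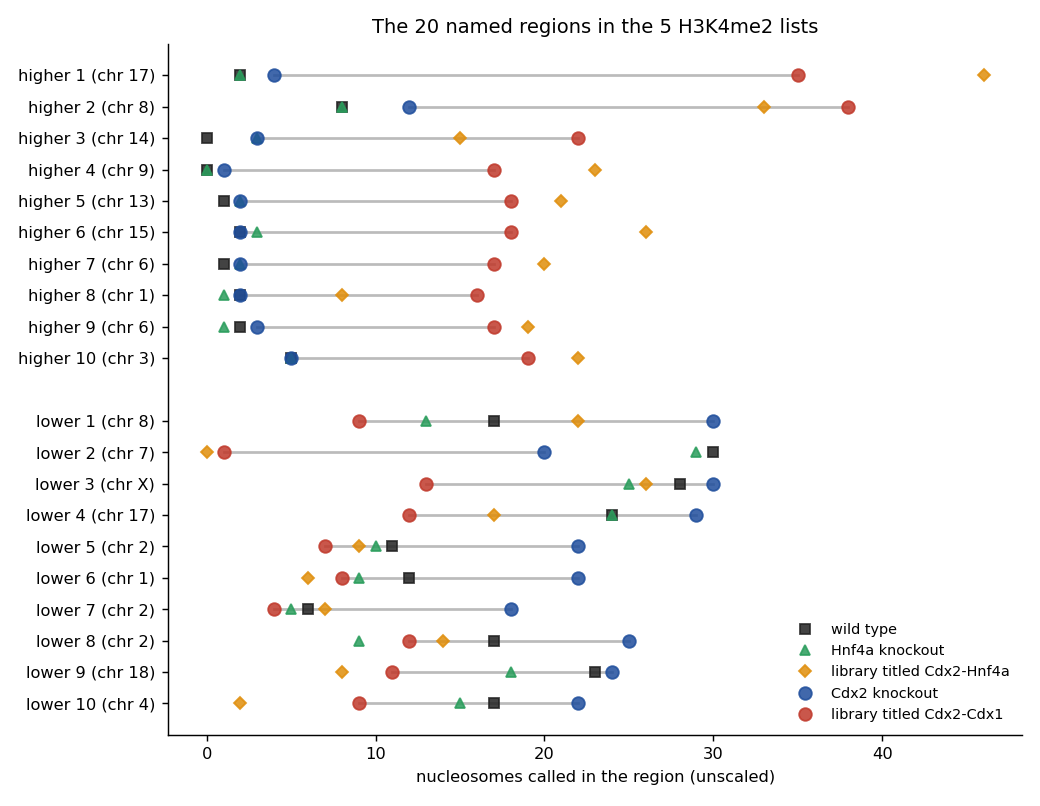
Nucleosomes called (unscaled) in each of the 5 H3K4me2 lists in the 10 higher and 10 lower regions with the largest scaled difference, in the order of that difference, with a grey line joining Cdx2 knockout and the library titled Cdx2-Cdx1. In 9 of the 10 higher regions the library titled Cdx2-Hnf4a also holds 15 or more (8 in higher region 8), and in lower region 2, on chromosome 7, both double knockouts lie at 0 or 1 against 30 in wild type.

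Factor sites were grouped by peaks of other libraries, so neither list compared here had a part in the grouping. CDX2 sites were regions with overlapping peaks in both wild-type CDX2 libraries. They were divided into 684 with and 900 without a wild-type HNF4A peak. HNF4A peaks outside CDX2 sites were divided into 6487 that overlapped an HNF4A peak in Cdx2 knockout, called kept, and 15129 that did not, called lost. HNF4A peaks with a CDX2 peak in only 1 wild-type library stayed in these classes, so they are not all without CDX2. Of the 33098 windows compared, 5341 held a CDX2 peak of either wild-type library and 840 held peaks of both. Nucleosomes were counted within 1 kb of each site centre. Neighbouring sites share nucleosomes: 34915 were counted at lost peaks in Cdx2 knockout, of which 32026 were distinct.

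H3K4me2 at CDX2 sites was at or slightly above the level of Cdx2 knockout in the library titled Cdx2-Cdx1, and this depended on which CDX2 peaks were used. At the 900 sites without HNF4A the mean was 1.42 nucleosomes per site in Cdx2 knockout, 1.70 in the library titled Cdx2-Cdx1 and 1.93 in wild type. The scaled ratio between the mutants was 1.09 (1.01 to 1.18). With CDX2 sites taken from the peaks of wild-type library 1 alone it was 1.01 (0.987 to 1.04), and from those of library 2 alone 1.06 (1.01 to 1.11). At the 684 sites with HNF4A the means were 3.12, 3.45 and 3.86, and the scaled ratio was 1.005 (0.948 to 1.07). With the peaks of library 1 alone it was 0.969 (0.944 to 0.995), just below 1.

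At HNF4A peaks outside CDX2 sites the scaled ratio was below 1. It was 0.927 (0.912 to 0.943) at kept peaks, with means of 4.14 nucleosomes against 4.07 in Cdx2 knockout, and 0.937 (0.923 to 0.9505) at lost peaks, with 2.37 against 2.31. The unscaled ratios were 1.02 and 1.03, so this direction turned with the scaling. Windows that held no factor peak of any list gave a scaled ratio of 1.02 (1.02 to 1.03). That ratio fell with wild-type density, and with 4 to 6 wild-type nucleosomes it was 0.923 (0.910 to 0.936). Windows with an HNF4A peak and no CDX2 peak had 0.964 (0.941 to 0.988) at that density. How far density sets the ratios at HNF4A peaks was not tested. The nucleosomes themselves had lower scores in the library titled Cdx2-Cdx1 near HNF4A peaks, with medians of 238.3 against 300.4 at kept and 208.5 against 259.4 at lost peaks. At CDX2 sites with HNF4A the medians were 203.6 and 212.2, and the medians at CDX2 sites without it had the same values. Over the whole lists they were 199.1 and 249.7. The gap in score was therefore smaller near CDX2 sites than in the lists as a whole.

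Single sites differed in either direction. At CDX2 sites with HNF4A the largest excess of the library titled Cdx2-Cdx1 was 4 nucleosomes against 0 in Cdx2 knockout, at chr7:16950217-16951147, chr18:11986751-11987960 and chr19:43989313-43989851. Sites at chr1:58834307-58835089 and chr3:30072529-30073029 had 5 against 1. Wild type held 3, 2, 3, 5 and 1 at these 5 sites, Hnf4a knockout 4, 4, 4, 6 and 1, and the library titled Cdx2-Hnf4a 0, 0, 1, 0 and 1. Over all sites of this class the means were 3.86 in wild type, 4.23 in Hnf4a knockout and 2.63 in the library titled Cdx2-Hnf4a. Sites named here and below were chosen for the largest gap between the 2 mutants. Which mutant another list lies near at them is therefore a description only. The nucleosomes at the first 4 of these sites were weak, and at a score of 200 or more the difference there was 0.

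The largest deficits at CDX2 sites with HNF4A were 6 against 10 at chr6:137513736-137514741, 3 against 7 at chr13:96612785-96613256 and 6 against 9 at chr3:28594557-28595725. They were followed by 5 against 8 at chr2:172977728-172979162 and 4 against 7 at chr2:143904488-143905211. Each of these 5 sites still held nucleosomes in the library titled Cdx2-Cdx1, and at the first its summed score was the higher one.

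At CDX2 sites without HNF4A, the largest excess was 6 against 0 at chr8:25544863-25545550, where wild type and Hnf4a knockout held 7 each and the library titled Cdx2-Hnf4a 2. Then came 4 against 0 at chr4:59255094-59255646, 5 against 1 at chr19:27391306-27392069, 7 against 3 at chr10:110359672-110360292 and 8 against 4 at chr4:128674456-128675008. Deficits there were led by 4 against 9 at chr11:98214998-98215562 and 1 against 5 at chr14:47923313-47924040. The other 3 were 6 against 9 at chr7:36120070-36120512 and 3 against 6 at chr15:94430463-94431471 and at chr18:73862353-73863023. The wild-type number was above that of the library titled Cdx2-Cdx1 at each of these 5 deficits.

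The largest single differences at HNF4A peaks were drawn from 15129 lost and 6487 kept peaks, against 684 and 900 CDX2 sites. Extremes grow with the number of sites searched, so their sizes are not compared between classes. At 4 lost peaks the library titled Cdx2-Cdx1 held 7 against 0 in Cdx2 knockout, namely chr3:143799499-143799727, chr5:3546191-3546618, chr11:102171945-102172359 and chr17:43638231-43638436, and wild type held 0, 4, 7 and 8. At chr11:78230462-78230796 there were 5 against 0, with 2 in wild type. The peak on chromosome 3 was unmarked in wild type and Hnf4a knockout, and the one on chromosome 17 was unmarked in the library titled Cdx2-Hnf4a.

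The largest deficits at lost peaks were 4 against 10 at chr2:162813058-162813465 and 2 against 8 at chr7:29626500-29626726. Next were 1 against 7 at chr2:118497421-118497758 and at chr2:167513109-167513545, and 5 against 10 at chr13:54805266-54805717. All 5 were marked in wild type, with 9, 3, 4, 7 and 7 nucleosomes.

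Among kept peaks, chr5:104464829-104465300 and chr9:44209217-44209655 had 6 against 0, with 4 and 5 in wild type. The peak at chr9:85303610-85304001 had 8 against 2, and those at chr15:85584671-85585090 and chr17:46131348-46131862 had 9 against 3. The deepest deficit was 1 against 7 at chr8:124830480-124831008, inside the first lower region. After it came 5 against 10 at chr3:106350032-106350372 and chr4:98062514-98063260, and 4 against 9 at chr17:34085952-34086428 and chr19:55926047-55926861. At a score of 200 or more, the difference moved by over 1.5 times in 34 of the 40 sites named for CDX2 and HNF4A and turned in 1 more.

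Sites without any nucleosome were fewer in the library titled Cdx2-Cdx1. Among CDX2 sites with HNF4A, 13.0% had none against 18.3% in Cdx2 knockout, with 52 sites marked in the library titled Cdx2-Cdx1 alone of the 2 mutants and 16 in Cdx2 knockout alone. At CDX2 sites without HNF4A the shares were 49.2% and 55.9%, with 74 and 14 sites. At lost HNF4A peaks they were 36.1% and 37.7%, with 866 and 628 peaks, and at kept peaks 7.00% and 7.26%, with 186 and 169. Of the 95 CDX2 sites with HNF4A that were marked in wild type and empty in Cdx2 knockout, 47, or 49.5% (39.1 to 59.9), were marked in the library titled Cdx2-Cdx1. For CDX2 sites without HNF4A it was 47 of 157, or 29.9% (22.9 to 37.8). Sites chosen for being empty in 1 list tend to be less empty in another, so these shares are a description, and a longer list leaves fewer sites empty.

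Since the ratio depended on wild-type density, windows with and without factor peaks were set side by side at equal wild-type numbers, a comparison chosen after the data were seen. Windows with CDX2 peaks of both wild-type libraries had a higher ratio than windows without a factor peak at 1 to 10 wild-type nucleosomes. With 2 to 3 wild-type nucleosomes the ratios were 1.18 (1.07 to 1.30) in 411 CDX2 windows and 0.997 (0.982 to 1.01) in 13263 windows without a factor peak. With 4 to 6 they were 1.06 (0.991 to 1.14) and 0.923 (0.910 to 0.936), and with 7 to 10 they were 1.01 (0.945 to 1.08) and 0.914 (0.9004 to 0.9287). At 11 or more they were 0.901 (0.845 to 0.961) and 0.888 (0.870 to 0.906), which overlap. Windows with an HNF4A peak and no CDX2 peak had 1.02 (0.984 to 1.05), 0.964 (0.941 to 0.988) and 0.923 (0.902 to 0.944) in the first 3 of these classes, between the others or close to windows without a factor peak.

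With 4 to 6 wild-type nucleosomes, for example, the 395 CDX2 windows held 1767 nucleosomes in the library titled Cdx2-Cdx1 against 1515 in Cdx2 knockout. The 7699 windows without a factor peak held 38473 and 37962. From 1 to 10 wild-type nucleosomes per window, the ratio was thus higher in CDX2 windows than in windows without a factor peak, and at 0 and at 11 or more the intervals overlapped. Cdx2 knockout was itself low in these CDX2 windows for their wild-type number, and that low level enters the ratio.

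**Figure D4:**
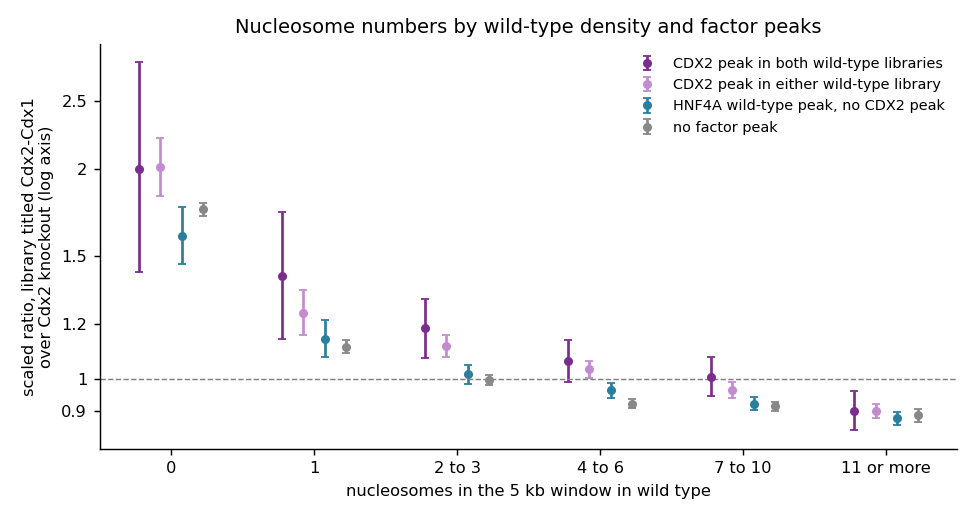
Scaled ratio of nucleosome numbers, library titled Cdx2-Cdx1 over Cdx2 knockout (log axis), in 5 kb windows grouped by their wild-type number and by factor peaks, with 95% counting intervals. The ratio falls from left to right in every group, and at 2 to 3 wild-type nucleosomes it is 1.18 with a CDX2 peak in both libraries and 0.997 without a factor peak.

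The shape of the mark around HNF4A peaks also differed between the mutants. Nucleosome centres were counted within 100 bp of the peak centre and from 100 to 200 bp on either side of it, so that both parts cover the same length. The ratio of flank to centre compares positions inside a list and needs no scaling by list length, but it depends on the score threshold. It too was chosen after the data were seen.

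At the 15129 lost HNF4A peaks, wild type had 7067 nucleosomes in the flanks and 4878 in the centre, a ratio of 1.45 (1.397 to 1.503). Cdx2 knockout had 5743 and 4926, a ratio of 1.17 (1.12 to 1.21), and the library titled Cdx2-Cdx1 5315 and 5354, a ratio of 0.993 (0.956 to 1.03). The dip over these peaks was thus shallower in Cdx2 knockout than in wild type, and in the library titled Cdx2-Cdx1 no dip was detectable. Between the 2 mutants the flank-to-centre ratio differed by a factor of 0.852 (0.807 to 0.898).

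Kept HNF4A peaks, where HNF4A was called again in Cdx2 knockout, had a dip in every list. Their ratio was 2.05 (1.95 to 2.15) in wild type, 1.63 (1.55 to 1.70) in Cdx2 knockout and 1.41 (1.35 to 1.48) in the library titled Cdx2-Cdx1. In numbers, the flanks had 4660 nucleosomes and the centres 2867 in Cdx2 knockout, against 4460 and 3154 for the library titled Cdx2-Cdx1. Fewer flanking and more central nucleosomes were thus called in the library titled Cdx2-Cdx1 even without scaling, while its whole list was longer. The factor between the 2 mutants was 0.870 (0.815 to 0.929).

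Other lists gave ratios on both sides of these. Hnf4a knockout had 1.31 (1.26 to 1.36) at lost and 1.76 (1.68 to 1.85) at kept peaks, and the library titled Cdx2-Hnf4a 0.918 (0.880 to 0.957) and 1.23 (1.17 to 1.29). At both kinds of peak the order was therefore wild type, Hnf4a knockout, Cdx2 knockout, the library titled Cdx2-Cdx1 and the library titled Cdx2-Hnf4a. The intervals of the double knockouts touched at lost peaks, those of Hnf4a and Cdx2 knockout overlapped at kept peaks, and those of the other neighbours in that order were apart. They hold no spread between libraries.

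CDX2 sites had too few nucleosomes to separate the mutants in shape. At sites with HNF4A the ratio was 1.26 (1.08 to 1.46) in wild type, 1.11 (0.946 to 1.29) in Cdx2 knockout and 1 (0.863 to 1.16) for the library titled Cdx2-Cdx1. The factor between the mutants was 0.904 (0.732 to 1.12). At sites without HNF4A the ratios were 1.24 (1.05 to 1.46), 1.02 (0.841 to 1.23) and 0.996 (0.834 to 1.19), and the factor was 0.978 (0.758 to 1.26). A further change of the size seen at HNF4A peaks lies inside both intervals.

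**Figure D5:**
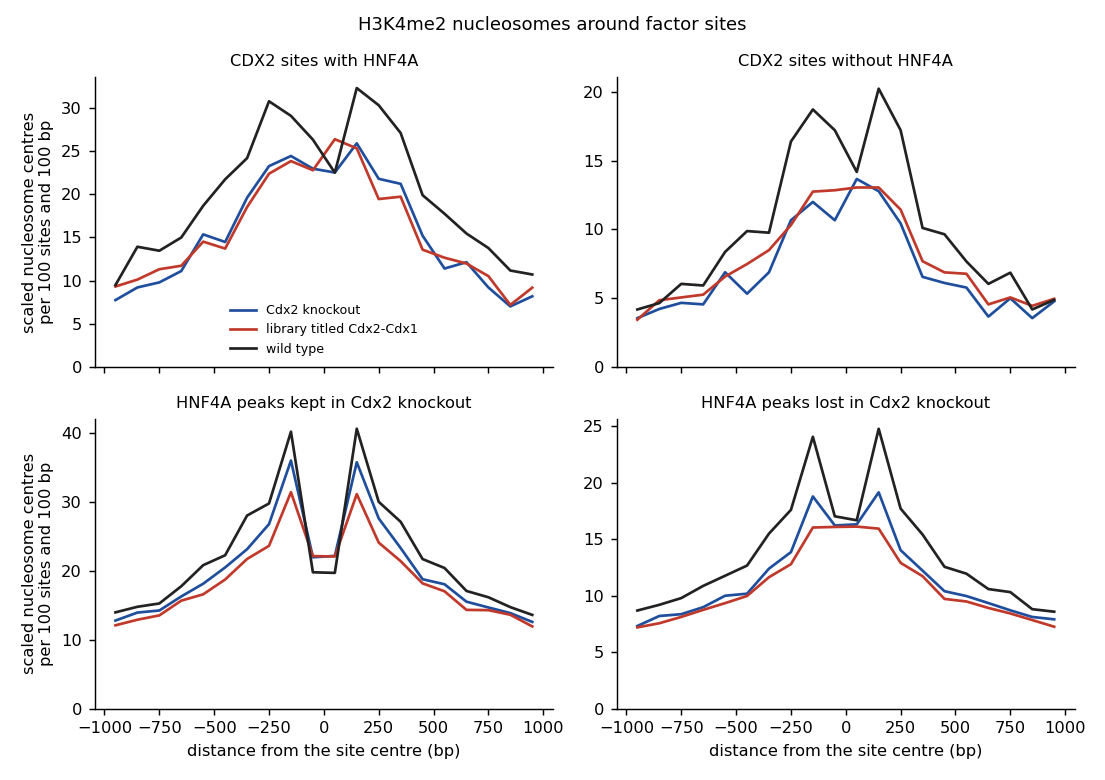
Scaled number of H3K4me2 nucleosome centres per 100 sites in 100 bp bins from 1 kb before to 1 kb after the site centre, with 1 line for each of 3 lists (1 library each, no error drawn). At lost HNF4A peaks the paired peaks of wild type are lower in Cdx2 knockout and level with the centre in the library titled Cdx2-Cdx1, whose flank-to-centre ratio was 0.993.

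Distance from the site showed how far the differences in amount reached. At kept HNF4A peaks the scaled ratio between the mutants was 0.922 (0.893 to 0.952) within 200 bp, 0.912 (0.886 to 0.939) from 200 to 500 bp and 0.962 (0.946 to 0.978) from 2000 to 5000 bp. At lost peaks it was 0.910 (0.886 to 0.935) within 200 bp and 0.983 (0.970 to 0.996) from 2000 to 5000 bp. Around CDX2 sites without HNF4A it was 1.14 (0.998 to 1.30) from 200 to 500 bp and 1.03 (0.9591 to 1.097) from 2000 to 5000 bp. The HNF4A ratios were lowest within 500 bp of the peak, and the CDX2 ratios did not differ from 1 beyond their counting error at any of these distances. The part of wild-type density in these ratios was not tested.

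Set against wild type, both mutants were low from 200 to 500 bp. At CDX2 sites without HNF4A, Cdx2 knockout was at 0.630 (0.555 to 0.714) of wild type there and the library titled Cdx2-Cdx1 at 0.717 (0.637 to 0.806). At sites with HNF4A the values were 0.748 (0.680 to 0.822) and 0.699 (0.637 to 0.768). The intervals of the 2 mutants overlap in both classes, and the values share the wild-type list.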

How the data were processed

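The authors deposited, per library, a list of called H3K4me2 nucleosomes with a score that the file headers give as 10 times the −log10 of a p-value, and lists of CDX2 and HNF4A peaks with a peak score, whose peak names carry the word MACS. The submitters' processing notes name mm9 as the build. The caller of the nucleosomes, aligner, control and depth are not given in these sources. Peak starts, 0-based in the deposited lists, are printed counting from 1.

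Nucleosomes with a score of 52 or more were used, since the lowest deposited score differed between lists. Numbers of nucleosome centres in 5 kb windows and within 1 kb of site centres were scaled by list length. Windows were compared where both lists together held 6 or more and called at a 2-fold difference. Shares have exact Clopper-Pearson intervals and ratios exact conditional binomial intervals, while factors between flank-to-centre ratios have log-normal ones, all at 95% and for counting error only. No test between conditions was possible with 1 library a side. Regions and sites named are the 10 joined regions per direction, and the 5 sites per class and direction, with the largest scaled difference. The window calls and overlaps were tested on simulated data, and the scaled ratio on a thinned list. The changes simulated for the window calls were larger than 2-fold and lay in well-filled windows. Calls near the 2-fold limit in thin windows, and the share called without a difference, were not tested. Nor were the site, flank and domain counts. Members, classes and rules were chosen with earlier results of these data known. Promoters and gene lists were planned and not run, because the gene table used here is of another build. Tools were Python 3.11.15, numpy 2.4.6, pandas 2.3.3 and scipy 1.17.1.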

Additional observations from a re-analysis of the deposited data

How the results depend on the processing

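The direction of the 20 named regions was the same under all 7 other settings of threshold, list length, scaling and measure. Named regions and sites were chosen as the largest differences, and each setting recounts nucleosomes of the same lists. A kept direction is therefore no independent check. The size of the difference was not kept in the regions: it moved by over 1.5 times in 19 of the 20 for scores from 200 up and 7 for scores from 100 up. Of the 40 named sites, 35 kept their direction under all 7. The shares of overlapping nucleosomes (Cdx2 knockout first, then the library titled Cdx2-Cdx1) were 78.0% and 70.1% for the deposited lists, 77.3% and 75.1% for scores from 100 up, 75.4% and 78.1% from 200 up, 74.9% and 75.2% with lists of equal length (256794 each), and 72.6% and 67.1% with an overlap of 50% of the nucleosome. Higher windows numbered 647 at a score of 100 or more, 784 at 200 or more, 2922 without scaling and 3366 with summed scores. Lower windows numbered 542 at 200 or more and 2765 with summed scores. Windows of 2 kb (1069 higher and 1626 lower, which turned the commoner direction) and 10 kb, lists as deposited, lists of equal length and scaling by covered bases left both counts within 1.5 times. At a score of 200 or more the ratios were 1.09 at CDX2 sites with HNF4A, 1.198 at those without, 0.944 at kept and 0.953 at lost HNF4A peaks and 1.01 in windows without a factor peak. In the same order they were 1.104, 1.2, 1.02, 1.03 and 1.12 without scaling, which turned both HNF4A ratios above 1 by construction. With summed scores they were 1.08, 1.19, 0.934, 0.967 and 1.01. Equal-length lists gave 0.954 at kept and 0.951 at lost peaks and 1.02 without a factor peak, and scaling by covered bases gave 0.945, 0.955 and 1.04. Leaving out either CDX2 library gave 0.969 to 1.006 at CDX2 sites with HNF4A and 1.01 to 1.06 without. The factors between flank-to-centre ratios stayed inside their main intervals under all 5 alternatives. At a score of 200 or more they were nearer to 1 at HNF4A peaks, with 0.919 (0.846 to 0.997) at kept and 0.892 (0.829 to 0.960) at lost peaks. At CDX2 sites they were then 1.015 with HNF4A and 0.902 without. Among single sites, the scaled difference in summed score was 600.7 at the first CDX2 site with HNF4A named for a deficit, 799.1 at the third deficit and −157.8 at the fifth excess of kept peaks, opposite to the numbers. It was −0.032 nucleosomes at the fifth excess at CDX2 sites with HNF4A at a score of 100 or more, and 0.033 at the fourth deficit without HNF4A at 200 or more. Omitting chromosome 2, a setting added after the data were seen, changed no direction. The causes were not tested. Promoter results were not run. No paired analysis was possible because each H3K4me2 group has 1 library. Reads per library are not given, so weak nucleosomes cannot be told apart from shallow or deep sequencing.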

Other observations

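The mitochondrial genome, which has no nucleosomes, had 31 calls in the library titled Cdx2-Cdx1 and 6 in Cdx2 knockout at a score of 52 or more. Among 386 bins of 5 Mb with 30 or more tested windows, the end of chromosome 1 from 195000001 had the largest share of higher windows, 8 of 30 (26.7%) with 0 lower. Next was chromosome 15 from 70000001 to 75000000 with 9 of 53. The largest share of lower windows was 4 of 30 on chromosome 10 from 50000001 to 55000000. These bins were picked as the extremes after the data were seen. Scores come in steps, with 2629 distinct values in the library titled Cdx2-Cdx1 and 2631 in Cdx2 knockout.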
